A study of Caenorhabditis elegans with 2 samples.

Results

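Of the 1115 MDL-1 peaks that the authors kept as reproducible (the "optimal" list), 289 lay on chromosome X of Caenorhabditis elegans, and 826 lay on the 5 autosomes. Within that list the X peaks were chosen by chromosome alone. The list itself was the 1115 regions with the highest signal in the pooled data, so height decided which regions entered it on X and on the autosomes alike. The X peaks were set against the autosomal peaks of the same list and against 6069 weaker candidate regions on X that the authors did not keep. The pooled candidate list was deposited as peaks and background together. Its weaker regions therefore include background and cannot all be taken as weaker MDL-1 binding. The assay was chromatin immunoprecipitation followed by sequencing (ChIP-seq), which maps where a protein sits on the genome.

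The study held 1 group of whole fourth-stage (L4) larvae, given as males and females together, in 2 biological replicates with no untagged or untreated group. All worms were of the transgenic strain OP355, which carries the unc-119 allele tm4063 on chromosome III and the insertion wgIs355 made for mdl-1. One note in the labels describes a GFP-FLAG tag at the C-terminus but assigns it to KLU-1, whereas the antibody and source labels name MDL-1. The sources used here give neither the promoter that drives the insertion nor its copy number, and whole animals give no cell type.

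MDL-1 is the worm counterpart of vertebrate Mad proteins. It binds DNA through a basic helix-loop-helix domain as a partner of the Max-like protein MXL-1, and such pairs recognise the E-box CACGTG. The X chromosome is particular in worms because hermaphrodites carry a pair and males a single copy. In hermaphrodites a condensin-like dosage compensation complex loads at recruitment sites on X and lowers transcription from both copies. X is also known to be poor in genes expressed in the germline.

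The summit sequences of the 10 strongest X peaks are shown because they carry the contrasts described further on: some hold an E-box, some hold a GA repeat and some hold neither. Capitals mark CACGTG and GAGAGA, or TCTCTC where the repeat reads on the other strand. Coordinates are on build ce11, and the windows reach 50 bp either side of the summit.
peak nearest to R03E9.2 (X:6737730-6737830, plus strand): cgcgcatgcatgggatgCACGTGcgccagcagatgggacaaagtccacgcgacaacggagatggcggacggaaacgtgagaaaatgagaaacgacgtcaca
peak nearest to epn-1 (X:14818902-14819002, plus strand): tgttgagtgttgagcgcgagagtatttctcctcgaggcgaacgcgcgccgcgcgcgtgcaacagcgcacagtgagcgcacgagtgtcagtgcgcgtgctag
peak nearest to bcat-1 (X:12872439-12872539, plus strand): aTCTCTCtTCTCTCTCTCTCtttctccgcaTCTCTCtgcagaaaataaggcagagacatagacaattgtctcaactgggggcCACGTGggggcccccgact
peak nearest to nipi-3 (X:15607619-15607719, plus strand): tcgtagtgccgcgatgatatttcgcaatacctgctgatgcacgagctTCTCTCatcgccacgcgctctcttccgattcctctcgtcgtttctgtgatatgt
peak nearest to nspc-17 (X:14525894-14525994, plus strand): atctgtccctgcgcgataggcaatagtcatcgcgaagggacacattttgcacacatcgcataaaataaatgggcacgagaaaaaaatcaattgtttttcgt
peak nearest to C30E1.4 (X:16929719-16929819, plus strand): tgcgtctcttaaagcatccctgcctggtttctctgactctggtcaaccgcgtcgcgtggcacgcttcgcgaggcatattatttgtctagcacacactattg
peak nearest to pigx-1 (X:1093231-1093331, plus strand): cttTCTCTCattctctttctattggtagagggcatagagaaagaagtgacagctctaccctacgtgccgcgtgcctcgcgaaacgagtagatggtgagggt
peak nearest to ZK470.2 (X:4145115-4145215, plus strand): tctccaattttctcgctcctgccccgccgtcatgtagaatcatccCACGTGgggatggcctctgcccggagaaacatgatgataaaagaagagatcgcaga
peak nearest to sid-3 (X:17184533-17184633, plus strand): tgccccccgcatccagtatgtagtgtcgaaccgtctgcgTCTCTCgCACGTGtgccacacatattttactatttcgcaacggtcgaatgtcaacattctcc
peak nearest to C36E6.2 (X:17451534-17451634, plus strand): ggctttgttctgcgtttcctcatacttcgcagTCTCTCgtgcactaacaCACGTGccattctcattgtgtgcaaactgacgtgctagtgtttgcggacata
CACGTG stood in 5 of these windows as printed above and GAGAGA or its complement in 5, and the windows at epn-1, nspc-17 and C30E1.4 held neither.

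Each of these peaks ranked high in both replicates. The signal is the value that the authors' peak caller gave each region. It has its own scale in each list, so replicates were compared by rank. The strongest X peak (X:6737497-6738030, intergenic) had a signal of 436 in replicate 1 and 274.5 in replicate 2, and ranked 1 in both. Its nearest 5' end was that of R03E9.2, 4479 bp away, and it also lay upstream of mdl-1 itself. The peak at epn-1 (X:14818751-14819181), which encodes an epsin of clathrin endocytosis, had 336 in replicate 1 (rank 3) and 190.0 in replicate 2 (rank 2). Its summit was 438 bp upstream of the gene. The third (X:12872297-12872639) lay 4991 bp upstream of bcat-1, a branched-chain amino acid aminotransferase, with 259 in replicate 1 (rank 7) and 157 in replicate 2 (rank 5). The peak 300 bp upstream of nipi-3 (X:15607525-15607827), a Tribbles-like pseudokinase of the epidermal immune response, had 254 (rank 8) and 133 (rank 9).

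The next X peaks in order of pooled signal had nspc-17, C30E1.4, pigx-1, ZK470.2, sid-3 and C36E6.2 as their nearest genes. Their pooled signals ran from 266 at nspc-17 to 247 at C36E6.2. The gene sid-3 encodes a tyrosine kinase needed for efficient systemic RNA interference, and pigx-1 a predicted subunit of glycosylphosphatidylinositol anchor synthesis. In replicate 1 the peak at nspc-17 had a signal of 150.3 and ranked 38, and in replicate 2 it had 119.8 and ranked 12. The peak 1797 bp upstream of sid-3 had 159 in replicate 1 (rank 31) and 87.3 in replicate 2 (rank 30). Thus no peak of these 10 ranked below 38 in replicate 1 or below 32 in replicate 2.

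The 25 strongest X peaks also had as nearest genes eef-1A.2 (a translation elongation factor), puf-9 (a Pumilio-family RNA-binding protein), hda-4 (a class II histone deacetylase), aak-2 (a catalytic subunit of AMP-activated kinase), bet-2 (a bromodomain protein), zfp-3 (a zinc finger protein) and nhr-1 (a nuclear hormone receptor). The others were R03E9.2 for a second peak, W02H3.3, F09A5.3, F20B6.9, F17H10.1, mdl-1, ZK899.6 and cest-16. Among all 25, 21 summits were intergenic, and 12 lay more than 2000 bp from the nearest protein-coding 5' end. Only 10 were in a promoter window, defined as 1000 bp upstream to 200 bp downstream of a protein-coding 5' end. Signals in this set reached down to 199, and the worst ranks were 84 in replicate 1 and 131 in replicate 2. The peak at aak-2 (X:16796897-16797067) was intronic, 885 bp downstream of the nearest 5' end, with 119.8 in replicate 1 (rank 73) and 87.6 in replicate 2 (rank 28). That at hda-4 (X:16726967-16727121), 2517 bp upstream, had 133 (rank 52) and 77.99 (rank 43).

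X held more of the kept peaks than of the weaker candidates. It carried 289 of 1115 optimal peaks (25.9%, exact Clopper-Pearson 95% interval 23.4% to 28.6%) and 6069 of 28885 weaker regions (21.0%, 20.5% to 21.5%). The ratio of the shares was 1.23 (Fisher's exact test, two-sided, adjusted p = 5.9e-04 over 10 tests). Of all 30000 pooled candidates 3.72% were kept, against 4.55% of those on X (4.05% to 5.09%) and 3.49% of those on autosomes. Chromosome III came close to X, with 4.28% kept (3.71% to 4.91%), and II had 3.79% (3.24% to 4.39%). Both intervals overlap that of X. The shares on I, IV and V were 3.07%, 3.06% and 3.35%, with intervals below that of X. The kept share on X was not tested against single autosomes. Without the 7 peaks and the candidates within 20000 bp of mdl-1, the gene of the insertion, the ratio was 1.21 (Fisher's exact test, adjusted p = 0.00174). Intervals cover the counting of peaks only. Read depth is unknown, neighbouring peaks are not independent, and p-values refer to peaks in these lists and not to animals.

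The share of X was higher among the first 100 ranks than in the lower rank ranges of each list. Of pooled ranks 1 to 100, 41 regions (41.0%, 31.3% to 51.3%) were on X, and replicate 1 gave 41 and replicate 2 gave 39. The first 25 alone held 9 X regions in the pooled list (36%, 17.97% to 57.5%), 7 in replicate 1 and 11 in replicate 2. At ranks 101 to 250 the share was 31.3% pooled, 28.7% in replicate 1 and 33.3% in replicate 2. At ranks 501 to 1115 it was 23.3% pooled, and at ranks 20001 to 30000 it was 19.99%, 20.1% and 19.1% in the pooled list, replicate 1 and replicate 2. The fall was not even, since ranks 1116 to 1500 held 28.3% X regions in the pooled list. X makes up 17.7% of the nuclear genome length and 13.7% of its protein-coding genes.

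**Figure D1:**
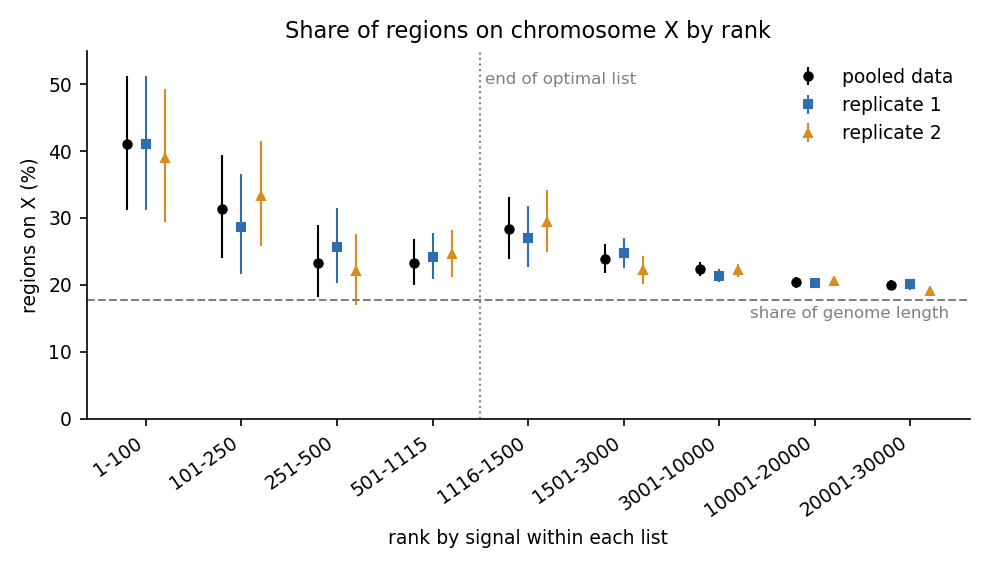
Share of candidate regions on X (vertical axis, %) by rank of signal within each list (horizontal axis), for the pooled data and each replicate, with exact 95% intervals. The pooled share runs from 41.0% at ranks 1 to 100 to 19.99% at ranks 20001 to 30000, and the dashed line marks the 17.7% of genome length.

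Strength within the optimal list was compared in the same way. The strongest 10% of the list held 46 X peaks, which was 15.9% of the X peaks (11.9% to 20.7%) against 7.99% of the autosomal peaks (6.23% to 10.1%). The ratio was 1.99 (Fisher's exact test, adjusted p = 8.0e-04), and this test is not independent of the share by rank given before. Against single autosomes the ratio was 3.14 for I and 3.04 for IV, and it did not pass for II (1.91, Fisher's exact test, adjusted p = 0.0720), III (1.34, adjusted p = 0.293) or V (1.97, adjusted p = 0.0509). Median pooled signal was 77.0 on X and 70.7 on autosomes. The weakest kept X peaks were near gcy-11 (48.8), cnnm-3 (48.7) and dpy-23 (48.3). The strongest X regions just outside the list were near C03A3.2 (48.2), set-8 (48.1) and gpcp-1 (48.1).

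X had more optimal peaks per Mb and per gene than the autosomes together. There were 16.3 optimal peaks per Mb on X and 10.01 on the autosomes together, where chromosome III had 14.1 and the other autosomes ranged from 8.27 to 11.0. Per 100 protein-coding genes, X had 10.6 peaks and the autosomes 4.79. X is also richer in intergenic sequence (44.5% of its bases against 35.8%), and per Mb of such sequence it had 25.5 intergenic peaks against 17.7. These densities are descriptions without a test.

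Most X summits were intergenic. Their number was 201 (69.6%, 63.9% to 74.8%), against 63.4% on autosomes (60.1% to 66.7%), and 70 (24.2%) were intronic against 29.2%. A further 9 were in a 5' UTR, 2 in a 3' UTR and 7 in a coding exon. Promoter windows held 136 X summits (47.1%, 41.2% to 53.0%) and 50.6% of autosomal ones, although such windows cover 21.8% of X and 27.2% of the autosomes. Summits over 2000 bp from a protein-coding 5' end made up 30.4% on X and 25.8% on autosomes, and the median distance was 948 bp against 820.5 bp. Counting the 5' ends of all annotated genes, the shares were 13.5% and 12.1%. None of these shares passed the test between X and autosomes (Fisher's exact test, adjusted p = 0.126 for intergenic, 0.178 for intronic, 0.340 for promoter windows and 0.178 for distal summits). The farthest X summits were at pks-1, in a coding exon 15205 bp upstream of C41A3.2 (signal 174.8), and 11174 bp downstream of the 5' end of got-2.2 (60.6).

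Over the whole optimal list, GAGAGA was rarer at X peaks. It stood within 50 bp of 76 of 289 X summits (26.3%, 21.3% to 31.8%) and of 331 of 826 autosomal summits (40.1%, 36.7% to 43.5%), on either strand. The ratio was 0.656 (Fisher's exact test, adjusted p = 2.7e-04). Every autosome had a higher share than X, from 35.7% on II to 43.8% on III, but the comparison with II alone (adjusted p = 0.109) and with V alone (adjusted p = 0.0549) did not pass Fisher's exact test. At weaker candidates the share was 7.17% on X and 7.77% on autosomes, and 4.91% and 5.24% of all 101 bp windows of X and of the autosomes held the sequence.

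The gap in GAGAGA was wide outside promoter windows, where 21.6% of 153 X summits and 44.4% of 408 autosomal summits held it (Fisher's exact test, adjusted p = 5.3e-06). Inside promoter windows the shares were 31.6% and 35.9% (Fisher's exact test, adjusted p = 0.453). The difference between these 2 classes was not itself tested. Each of these p-values was adjusted in place of the main GAGAGA test among the 10 tests. They were not adjusted over the subsets, which were chosen after the data were seen. Introns showed 24.3% on X against 44.0%, and intergenic summits 28.4% against 39.7%. Longer alternating GA runs were counted with no test. A run of at least 10 bp was found at 7 X summits (2.42%) and 60 autosomal ones (7.26%), and one of at least 20 bp at 0 and 8. The largest number of GAGAGA matches in an X window was 7, in introns of kin-20 and wrt-9.

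CACGTG did not set X apart. It was found at 54 X summits (18.7%, 14.4% to 23.7%) and at 19.4% of autosomal ones (16.7% to 22.2%; Fisher's exact test, adjusted p = 0.862). Weaker X candidates held it in 2.46%, and 1.32% of all X windows did. Among X peaks it was present at 19 of 70 intronic summits (27.1%) and 29 of 201 intergenic ones (14.4%). The 54 peaks with an E-box had a median signal of 86.6, against 74.0 for those without. Both sequences stood together at 11 X peaks with a median signal of 134, among them those at bcat-1, sid-3, C36E6.2, bet-2, nhr-32 and pek-1. Neither was found at 170 X peaks (58.8%), against 46.4% of autosomal peaks. The G and C content at X summits had a median of 49.5% and at autosomal summits 48.5%, against 33.7% at weaker X candidates.

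**Figure D2:**
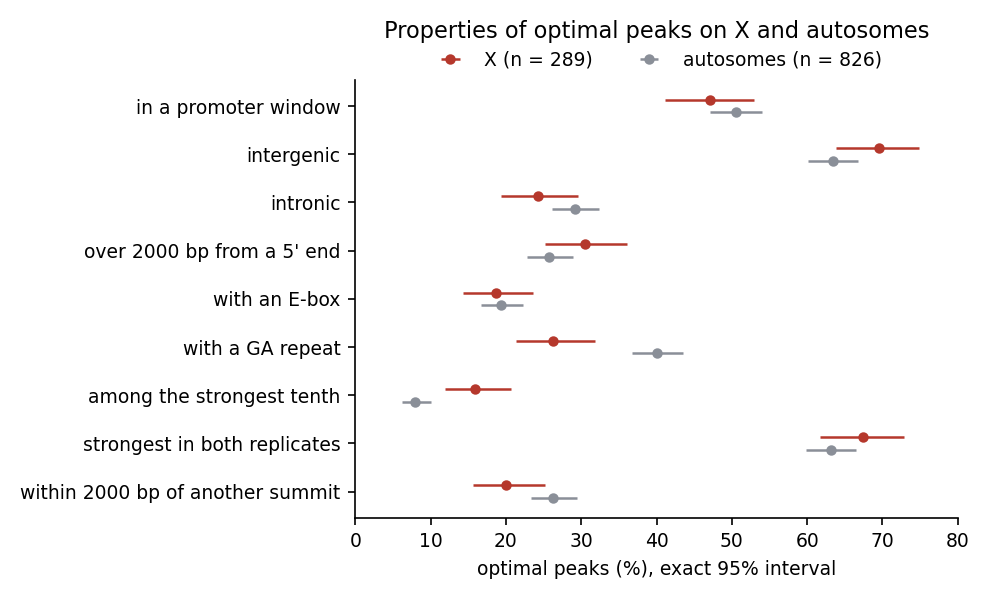
Share of optimal peaks with each property (horizontal axis, %) for the 289 X peaks and the 826 autosomal peaks, with exact 95% intervals; the GA repeat is GAGAGA and the E-box CACGTG, within 50 bp of the summit. The intervals are apart for the GA repeat (26.3% and 40.1%) and for the strongest 10% (15.9% and 7.99%), and those of the other 7 properties overlap.

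All hexamers were then compared between X and autosomal summit windows, a scan chosen after the data were seen. Of 2080 hexamers, 2 differed (0.0962%, Fisher's exact test, Benjamini-Hochberg adjustment over all): GAGAGA, lower on X, and CCCTGC with its complement GCAGGG, higher on X. CCCTGC stood at 23 X summits (7.96%) and 17 autosomal ones (2.06%), with an adjusted p of 0.0278 in Fisher's exact test. At an unadjusted p under 0.05 there were 156 hexamers. At weaker candidates the shares were 1.33% on X and 0.969% on autosomes.

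GCAGGG lies inside GCGCAGGG, which is known as the core of the motif found at the dosage compensation recruitment sites of X. This longer core was followed up because of that, after the values had been seen, so its counts are given with no test. The genome held 314 copies on either strand, 81 of them on X. An optimal MDL-1 summit lay within 200 bp of 21 X copies (25.9%, 16.8% to 36.9%) and of 2 of 233 autosomal copies (0.858%, 0.104% to 3.07%). With a distance of 500 bp the shares were 27.2% and 2.15%. Near any of the 30000 pooled candidates, kept or not, lay 50.6% of X copies and 14.2% of autosomal copies. The share of all positions that lie this near a summit was not counted, so these shares have no baseline. Optimal peaks per Mb were 16.3 on X and 10.01 on the autosomes. In terms of peaks, 17 X peaks (5.88%, 3.46% to 9.25%) and 2 autosomal peaks (0.242%, 0.0293% to 0.872%) had a copy that near. Of the 23 X windows with CCCTGC, 12 held the whole core, and none of the 17 autosomal ones did.

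The 12 copies at the strongest of these peaks that overlap no UTR are shown, each with 16 bases on either side and the core in capitals, read along the strand that carries it. They are named by the gene with the nearest 5' end.
nspc-17 (X:14525884-14525923, minus strand): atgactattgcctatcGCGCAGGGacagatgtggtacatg
W02H3.3 (X:11094109-11094148, minus strand): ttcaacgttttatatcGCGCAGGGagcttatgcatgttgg
W02H3.3 (X:11094210-11094249, minus strand): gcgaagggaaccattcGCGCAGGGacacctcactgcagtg
F20B6.9 (X:4209250-4209289, minus strand): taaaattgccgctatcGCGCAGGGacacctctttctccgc
cest-16 (X:6296532-6296571, plus strand): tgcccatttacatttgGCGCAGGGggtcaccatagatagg
cest-16 (X:6296560-6296599, plus strand): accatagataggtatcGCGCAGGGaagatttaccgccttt
gtr-1 (X:806658-806697, plus strand): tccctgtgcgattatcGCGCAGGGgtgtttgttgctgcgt
gtr-1 (X:806734-806773, plus strand): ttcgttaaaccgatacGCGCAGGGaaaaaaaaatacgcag
C41A3.2 (X:5429574-5429613, plus strand): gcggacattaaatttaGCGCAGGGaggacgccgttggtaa
F22H10.2 (X:16682156-16682195, minus strand): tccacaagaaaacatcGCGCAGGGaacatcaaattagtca
Y41G9A.17 (X:2997107-2997146, minus strand): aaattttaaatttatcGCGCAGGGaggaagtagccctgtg
Y41G9A.17 (X:2997282-2997321, minus strand): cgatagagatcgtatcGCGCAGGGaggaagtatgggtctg
Many read TC directly before the core and A after it. These flanking bases were picked from the copies at these peaks, so the counts that follow are a description only. Of the 21 X copies at MDL-1 peaks, 13 had TC before the core, against 6 of the 60 other X copies and 6 of the 233 autosomal ones. A followed 16 of the 21, 18 of the 60 and 79 of the 233. Seen the other way, 13 of the 19 X copies preceded by TC were within 200 bp of an optimal summit, and of the 6 autosomal copies with TC none was.

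Pooled signal was high at most of these 17 X peaks. Their median signal was 153, against 74.4 for the other X peaks, and 13 of them ranked 200 or better in the pooled list. They had median ranks of 96 in replicate 1 and 123 in replicate 2. The peak near W02H3.3 (X:11094054-11094315, intergenic) had a signal of 146.7 in replicate 1 (rank 41) and 88.5 in replicate 2 (rank 25), with 2 copies at 11 and 90 bp from its summit. The peak 3370 bp upstream of cest-16 (X:6296456-6296671) lay in an intron of another gene, mom-1. It also has 2 copies and had 163 (rank 27) and 61.3 (rank 101). The peak 4905 bp upstream of xol-1 (X:8036360-8036490), the switch gene of worm sex determination, had 109 (rank 98) and 47.8 (rank 183), with 2 copies at 3 and 31 bp from its summit. A second of the 17 peaks lay 200 bp from it, with a pooled signal of 57.6. None of them held GAGAGA, 2 held CACGTG, 4 were in a promoter window and 10 lay over 2000 bp from a 5' end. Whether dosage compensation proteins sit at these peaks was not measured here. Optimal peaks near a core copy were then left out, while all 28885 weaker regions were kept. The X share was then 1.18 times as high among optimal as among weaker regions (Fisher's exact test, adjusted p = 0.00966). The share among the 10% strongest was 1.73 times as high on X as on autosomes (Fisher's exact test, adjusted p = 0.0165). Each of these 2 p-values was adjusted in place of the matching main test among the 10 tests. The peaks left out were picked by a core chosen after the data were seen, so both values are descriptive.

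**Figure D3:**
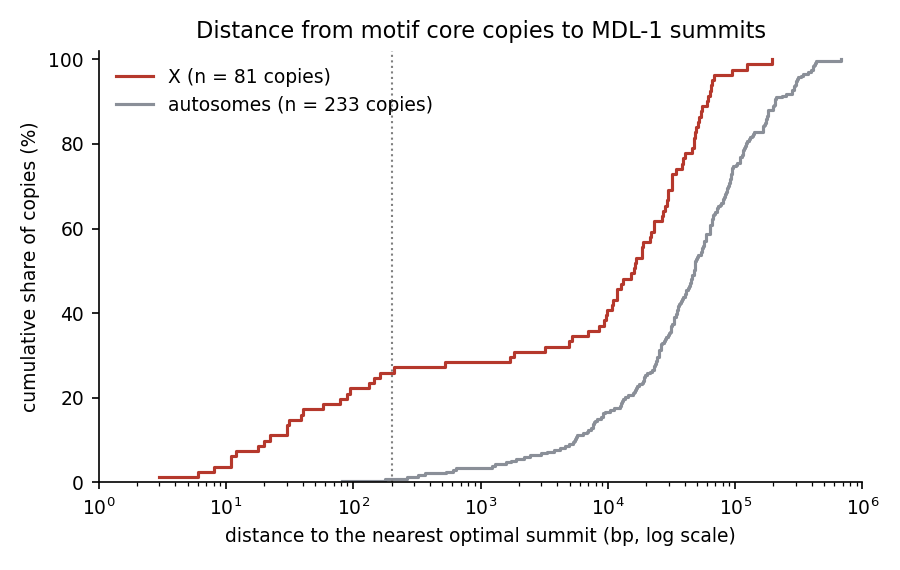
Cumulative share of copies of the 8-base core (vertical axis, %) by distance to the nearest optimal summit on the same chromosome (horizontal axis, bp, log scale), for 81 X copies and 233 autosomal copies. At 200 bp (dotted line) the X curve stands at 25.9% and the autosomal curve at 0.858%.

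Most X peaks were among the strongest regions of both replicates. Each of the 289 overlapped a candidate region of replicate 1 and 288 one of replicate 2, the exception being a peak near hil-3 (pooled signal 51.1, rank 823 in replicate 1). Among the 1115 strongest regions of both replicates were 195 X peaks (67.5%, 61.7% to 72.8%) and 63.2% of autosomal peaks (Fisher's exact test, adjusted p = 0.2497). A further 60 X peaks were that strong in replicate 1 alone and 21 in replicate 2 alone. Spearman's rho between the replicate signals was 0.681 over 288 X peaks and 0.549 over 825 autosomal peaks. This is a description across peaks chosen from both libraries. As 8 X peaks in each replicate shared their region with another optimal peak, those have the rank of their shared region.

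Over all X peaks, 160 of 288 (55.6%, 49.6% to 61.4%) ranked better in replicate 1, and 56.7% of autosomal peaks did. A rank past 5000 in replicate 2 was seen for 13 X peaks, and in replicate 1 for none, with 33 and 3 on autosomes. The X peak with the widest gap lay near F46H5.3 (X:7230260-7230655), at rank 764 in replicate 1 and 21653 in replicate 2. The peak at peb-1, an intronic site 267 bp upstream of a 5' end, was at rank 430 and 12764. In the opposite direction, a peak 101 bp upstream of K11G12.6 was at rank 3933 in replicate 1 and 163 in replicate 2. A neighbouring optimal peak with the same nearest gene was at rank 360 in replicate 1 and 5091 in replicate 2. That gene lies within 20000 bp of mdl-1.

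**Figure D4:**
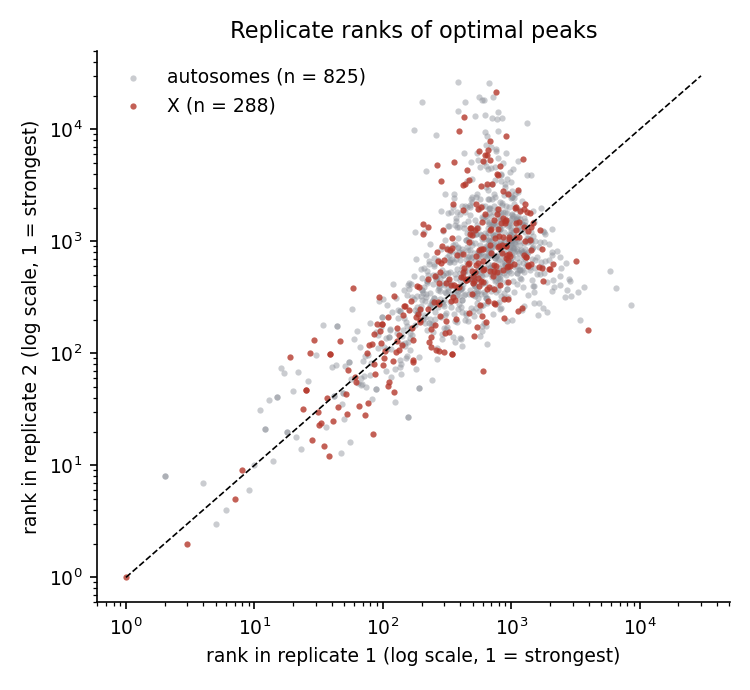
Rank of each optimal peak in replicate 1 (horizontal axis) and replicate 2 (vertical axis), both on log scales with 1 the strongest, for 288 X and 825 autosomal peaks found in both. The points follow the dashed line of equal rank at the strong end, and 13 X peaks lie past rank 5000 in replicate 2.

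X peaks were spread along the chromosome from position 324191 to 17640987 of 17718942. Neighbouring summits had a median spacing of 37758 bp, and the widest stretch without one ran from 3246036 to 3650542. Cut into 10 equal bins of 1.77 Mb from its left end, X held between 19 and 41 peaks a bin. The last 3 bins held 41, 38 and 37, together 116 (40.1%), against 32.5% of all X candidates. The 1115 strongest regions of replicate 1 gave 39, 41 and 37 in these bins, and those of replicate 2 gave 39, 38 and 36. The share of candidates kept there was 5.53%, 5.71% and 5.61%, and elsewhere it ranged from 3.06% in the sixth bin to 5.35% in the fifth. The intervals of these shares overlap.

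The share of peaks with a close neighbour did not pass the test between X and autosomes. Another optimal summit lay within 2000 bp of 58 X peaks (20.1%, 15.6% to 25.2%) and of 26.3% of autosomal peaks (23.3% to 29.4%; Fisher's exact test, adjusted p = 0.0979). Without the mdl-1 region the X share was 18.1% and the adjusted p 0.0152, whereas in the strongest regions of replicate 2 alone the direction was the opposite (29.5% on X, 25.2% on autosomes). X had 16 pairs, 6 groups of 3 and 2 groups of 4. One group of 4 lay upstream of mdl-1 and the other spanned 2853 bp of the gene F09A5.3 (summed signal 472). The triples lay at ZK470.2, nhr-3, sma-9, ivns-1, kin-20 and K11G12.6.

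The mdl-1 locus (X:6742351-6743899, plus strand) had 24 pooled candidates within 20000 bp, of which 7 were optimal and all of those upstream. Summits of the 3 strongest were 4571, 5779 and 2827 bp upstream of its 5' end, with pooled signals of 701, 238 and 216. Their ranks were 1, 33 and 29 in replicate 1 and 1, 24 and 131 in replicate 2. The other 4 had pooled signals from 59.0 to 73.6 and lay 6600 to 13922 bp upstream. Of those 4, 3 made up the group at K11G12.6 and had that gene as their nearest. The gene R03E9.2 lies between that group and mdl-1. No optimal summit lay in the promoter window of mdl-1 or downstream of the gene. Since the insertion may carry its own copy of mdl-1 sequence, reads from it and from the native locus cannot be told apart here.

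**Figure D5:**
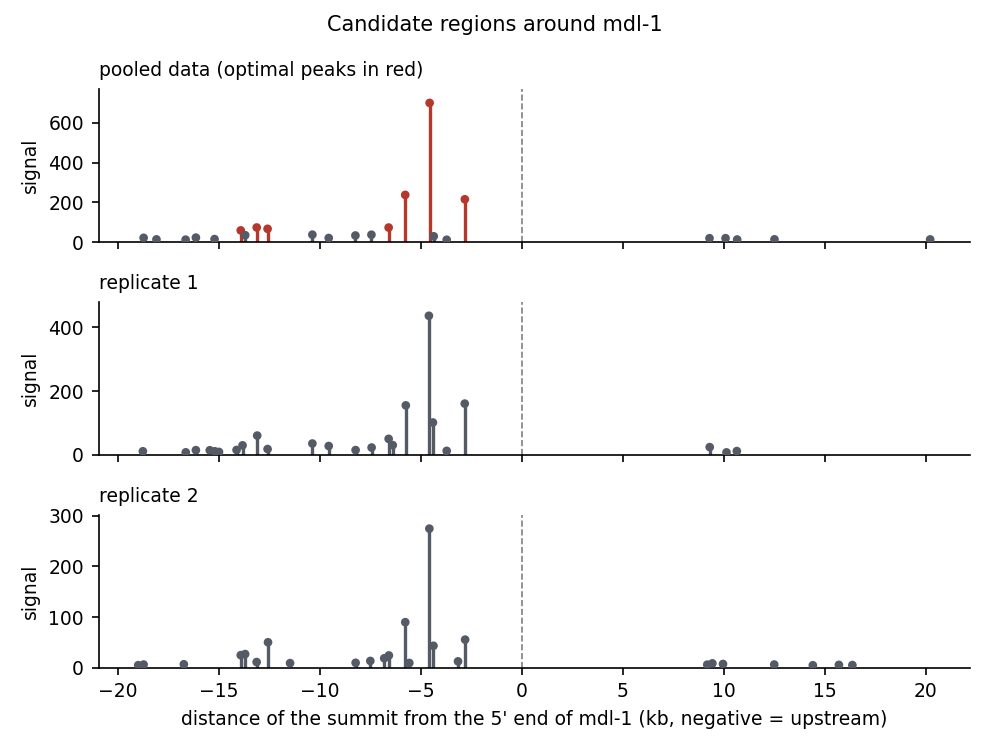
Signal of candidate regions (vertical axis, own scale in each panel) by distance of the summit from the 5' end of mdl-1 (horizontal axis, kb, negative upstream), in the pooled data and each replicate. The 7 optimal peaks, in red, are all upstream, and the region 4571 bp upstream is the strongest in each panel.

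Counting genes, 146 of 2731 X protein-coding genes (5.35%) had an optimal summit in a promoter window, against 635 of 19973 genes genome-wide (3.18%). Of the 146 genes, 4 had 2 summits in their window and the others 1. Of the 136 summits in promoter windows, 123 lay in that of a single gene, and 13 in those of more. For 242 of the 2731 X genes the 5' end was the nearest to at least 1 X peak, in the promoter window or outside it. The lists of genes that follow are given by counts, with the 5.35% of X genes as the background for promoter peaks. Members with a nearest peak only outside the window are counted apart, and no background share is given for them. Lists of a few genes give only rough shares. The lists were also chosen with earlier results of these data known, so a share above that background is not read as enrichment.

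Immune and stress signalling had 3 of 8 X members with a promoter peak. They were nipi-3, cebp-1 (a C/EBP-type transcription factor, 740 bp upstream, signal 91.6 and 39.7 in replicates 1 and 2) and mek-1 (a MAP kinase kinase, 585 bp upstream, 29.6 and 21.1). The peak at cebp-1 ranked 148 and 267, and that at mek-1 ranked 1397 and 1030, close to the end of the list. The genes elt-2, jkk-1, mkk-4, sek-1 and snf-12 had none.

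Endocytosis had 2 of 7 X members, epn-1 and dpy-23, which encodes the medium subunit of the AP2 clathrin adaptor. The peak at dpy-23 (X:4388784-4389179), 377 bp upstream, had 82.4 in replicate 1 (rank 189) and 43.0 in replicate 2 (rank 224). Insulin, dauer and steroid signalling had 2 of 8 with a promoter peak: ftt-2, a 14-3-3 protein (62.1, rank 344, and 61.7, rank 98), and akt-2, the Akt kinase (59.3, rank 377, and 24.1, rank 755). A further 3 members had a peak nearest to their 5' end but outside the window. These were the kinase pdk-1 (1367 bp upstream), the nuclear receptor daf-12 (1683 bp downstream, intronic) and ist-1, the insulin receptor substrate homologue (2511 bp upstream).

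In energy and lipid metabolism, 1 of 8 had a promoter peak, kin-29, a salt-inducible kinase (267 bp upstream, 71.2 and 29.96 in replicates 1 and 2). The kinase aak-2 and the lipase gene hosl-1 had a peak nearest to them. In the list for hypoxia and oxygen sensing, 1 of 4 had a promoter peak. It was oga-1, the enzyme that removes O-GlcNAc (316 bp upstream, 94.6, rank 134, and 61.2, rank 106). The other X members of that list, cysl-1, gcy-36 and vhl-1, had none. In the heterochronic list, 1 of 4 had a promoter peak, lin-14, the factor that sets early larval fates (63 bp upstream, 33.2, rank 1119, and 41.6, rank 238). The list also names let-7, which was not matched by name in the annotation and is not among the 4. The vacuolar ATPase gene vha-12 was 1 of 3, and the BMP pathway cofactor sma-9 was 1 of 13 signalling genes. For muscle the count was 1 of 12, at mup-2, which encodes troponin T.

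Among nuclear hormone receptors, 4 of 23 X members had a promoter peak: nhr-1 (96.9 in replicate 1, rank 127, and 61.3 in replicate 2, rank 102), nhr-32, nhr-48 and nhr-35. Another 4, nhr-3, nhr-14, nhr-71 and nhr-17, had a peak nearest to their 5' end outside the window. For the dosage compensation list, 1 of 6 did, sdc-1, which encodes a protein that helps load the complex (246 bp upstream, 29.6, rank 1398, and 16.6, rank 1803). The gene xol-1 had a peak nearest to it, described above, and ceh-39, fox-1, sdc-2 and sex-1 had none. Of the Myc-Mondo-Mad network, both X members, mdl-1 and mxl-3, had peaks nearest to them but none in the window. The strongest at mxl-3, a Max-like gene, lay 5857 bp upstream (85.5, rank 172, and 63.4, rank 87).

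The remaining lists are given by count alone. At 5.35% of X genes, lists of these sizes would hold few or none, so nothing is read from the zeros. The counts were 0 of 29 cuticle collagens, 0 of 23 genes of synapses and excitability, 0 of 18 homeobox genes, 0 of 9 vitellogenin and intestinal GATA genes, 0 of 6 basic helix-loop-helix genes and 0 of 2 cytosolic ribosomal protein genes. Neuropeptides had 1 of 34, ins-39. MicroRNA genes had 4 of 74 (5.41%, near the share of all X protein-coding genes), namely mir-54, mir-55, mir-55b and mir-56, which lie together in the F09A5.3 group. The peak nearest to mir-54 (X:13145148-13145456), 213 bp upstream, had 165 in replicate 1 (rank 25) and 77.0 in replicate 2 (rank 47). That peak also served mir-55 and mir-56.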

How the data were processed

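MDL-1 ChIP-seq peak lists of 2 biological replicates were used, with sonication given as the fragmentation in the labels. The authors deposited a candidate list for each replicate and for the pooled data (30000 regions each). They also deposited an optimal list kept by the irreproducible discovery rate, per the notes deposited with the libraries. The pooled candidate list is labelled as peaks and background used as input for that step. The signal values were made and deposited by the authors, with a scale of their own in each list, and were used to rank regions within a list. The −log10 q-value column deposited by the authors was not used. No source used here names the aligner, the peak caller or the thresholds. Control libraries were not used. Read depth is unknown.

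Summits were taken as start plus deposited offset. Genes came from Ensembl release 115 on WBcel235, the sequence of ce11, and summit sequences from the RefSeq genome of that assembly. Shares on X and autosomes were compared with Fisher's exact test, two-sided, with Benjamini-Hochberg adjustment over 10 tests and a threshold of 0.05, in Python 3.11.15 (scipy 1.17.1, pandas 2.3.3, numpy 2.4.6). Motifs were searched on both strands. The code was tested on simulated data.

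Named genes were those nearest to the 25 strongest X peaks, up to 4 X members of each of 20 gene lists with the strongest summit, the peaks beside the end of the list, and mdl-1 with its neighbours. The members, lists and tests were chosen with earlier results of these data known. The hexamer scan, GCGCAGGG with its 200 bp distance, GA run lengths, the GAGAGA split by feature and the single autosomes were chosen after the data were seen, as were the named peaks at pks-1, got-2.2, F46H5.3, peb-1, hil-3, K11G12.6, kin-20, wrt-9, W02H3.3, cest-16 and pek-1 and the groups of neighbouring peaks. Alternatives covered the peak set, the mdl-1 region, windows, distances, the ce10 lists and each replicate alone.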

Additional observations from a re-analysis of the deposited data

How the results depend on the processing

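Values are ratios of the X share to the compared share. Of the recomputed values, 72 were counted as unchanged, 8 no longer passed, 5 newly passed and 1 changed direction. Unchanged means that direction and side of the threshold were kept. The 72 include 6 values for each GCGCAGGG share, which have no adjusted p and are given with no test. In the 557 strongest optimal peaks, the ratios for GAGAGA (0.738) and for the strongest 10% (1.86) no longer passed. GAGAGA also did not pass for promoter-window summits alone (0.881) or against II (0.736) or V (0.711), and the strongest 10% did not against II (1.91), III (1.34) or V (1.97). The test for close neighbours passed without the mdl-1 region (0.688) and at 5000 bp (0.767), and promoter windows passed with 2000 bp upstream to 500 bp downstream (0.860). The cause was not tested. With 1 replicate's strongest regions in place of the optimal list, ratios ranged from 0.860 to 1.17 for close neighbours, which turned without replicate 1. They ranged from 0.839 to 0.927 for promoter windows and from 1.15 to 1.29 for distal summits, both of which passed without replicate 1. GAGAGA ranged from 0.714 to 0.767 and the strongest 10% from 1.94 to 1.99. Leaving out summits near a stronger one gives no value for close neighbours. Depth is unknown, so what it limits was not measured. No paired analysis was possible because the study has only 1 group.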
